A study of Drosophila melanogaster with 28 samples.

Results

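The 26 array elements described here differed between CS females and XX pupae that had lost *tra*, differed with the same sign between female and male *tud* progeny, and were on average close to 0 between CS females and XX pupae that made only the male form of DSX. They were chosen from 15744 non-control elements by their mean log2 ratios. An element had to have the same sign, at a size of 0.5 or more, between CS females and XX *tra* pseudomales and, at 0.2 or more, between female and male *tud* progeny, and a mean below 0.25 in size between CS females and XX *dsxD* pseudomales, each over at least 3 arrays. Elements on the lists of genes with germline expression, *tra* itself, and elements with large effects in both kinds of *dsx* null were left out. Of 3942 elements measured on enough arrays, 243 had the same sign in *tra* pseudomales and *tud* progeny, 30 of these were below 0.25 in *dsxD* pseudomales, and 26 remained after 4 were left out. The elements left out were those of *tra*, *CG7294*, *CG2150* and *CG13720*. The membership depends in part on single arrays. Without *dsxD* replicate 3 the rule gave 13 elements, 11 of them among the 26, and without replicate 4 it gave 17, 15 of them among the 26. Part of this loss was fixed by the minimum of 3 arrays, since 13 of the 26 were measured on only 3 *dsxD* arrays. With 2 arrays allowed in place of 3, only 4 of the 26 were chosen again with each of the 12 *tra*, *tud* and *dsxD* arrays left out in turn.

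All RNA came from whole pupae at 48 hour APF (after puparium formation), pooled over many pupae of a genotype. Both genotypes of a comparison were hybridized to the same two-color array, with 4 arrays for each of 7 comparisons. XX *tra* pseudomales carried *tra1* over Df(3L)st-j7, a deletion that removes *tra*. XX *dsxD* pseudomales carried *dsxD* with *Sb1* and *e1* over *dsx m+r15*, a *dsx* null deletion, and make the male DSX isoform alone. XX and XY *dsx* nulls carried *dsx d+R3* over *dsx m+r15* and make no DSX. All XX mutants had an X chromosome from the father with a *UBI-GFP* transgene marked with *white*, which in both kinds of pseudomale also carried *y* and *w*, and so they differ from CS by more than the sex hierarchy. *tud* progeny are sons and daughters of *tud1 bw1 sp1* mothers, lack a germline, and their daughters carry the same transgene. CS (Canton S) and Berlin are wild type strains, and females and males were compared within each. Pupae of a pool are not replicates, and separate pools for the 4 arrays are not stated, so that the spread between arrays may be in part technical. In whole pupae, fewer cells of a type and less RNA per cell cannot be told apart.

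In *Drosophila* the sex hierarchy is a cascade of regulated splicing. *Sex-lethal* is active in animals with 2 X chromosomes and directs the splicing of *tra*, whose protein in turn directs the splicing of *dsx* and *fruitless* RNA. DSX is a transcription factor with a female and a male isoform that drive sex-specific development of the soma, and *fruitless* is known for its role in male behavior and the nervous system. Loss of *tra* in an XX animal alters both branches, whereas *dsxD* alters the *dsx* branch.

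All ratios are given as deposited, with CS females over pseudomales or XX nulls, CS males over XY nulls, and females over males, so that a positive value means a lower level in the mutant or in the male. The deposited text does not state this direction, which was set by the signs of the sex differences in the lists published with the data. The dyes were exchanged between replicates 1 and 2, with the female or wild type RNA in Cy5, and replicates 3 and 4. A single array held between 4783 and 12023 values, and its median log2 ratio was between -0.15 and 0.18, with all Berlin arrays above 0. In the *tra* comparison the mean correlation between arrays was 0.702 for pairs of the same dye orientation and 0.368 for pairs of opposite orientation, across elements, which are not independent. The list of genes with male germline expression had a median log2 ratio of -1.43 in CS, -1.5 in Berlin and -0.04 in *tud* progeny. The *tra* element had log2 ratios of 0.53, 1.17, 0.90 and 0.99 on the *tra* arrays, lower in the pseudomales on all 4. On the 3 *dsxD* arrays that measured it, the values were -0.13, 0.19 and -0.34.

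The members fall on 2 sides. On the female side, 15 elements were lower in *tra* pseudomales than in CS females and higher in *tud* females than in *tud* males. On the male side, 11 elements had the opposite signs. Names could be given to 15 of the 26, 12 on the female side and 3 on the male side, and the other 11 elements are unnamed here. On the female side, *Osi6* (*CG1151*) belongs to the Osiris family, which is known for roles in cuticle formation, and *ChLD3* (*CG17905*) is a chitin deacetylase-like protein. *CG7432* and *CG8170* are listed in the gene table with the older symbols cSP19 and cSP54, which denote clip-domain serine proteases and their homologs, and *Spn88Ea* (*CG18525*) is a serine protease inhibitor. Further named members were *coro* (*CG9446*), an actin-binding coronin, *CG5026*, a myotubularin-related protein, and *w* (*CG2759*), the ABC transporter that carries eye pigment precursors. No role is given here for *CG14636*, *CG44085* (*CG6043* in older annotation), *CG13377* and *CG13458*. The 3 named male-side members were *Pomp* (*CG9324*), a proteasome assembly factor, *Fem-1* (*CG9025*), an ankyrin-repeat protein named after a sex-determination gene of *Caenorhabditis elegans*, and *Lapsyn* (*CG15658*), a leucine-rich repeat protein known for a role in synapse formation.

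Of the 15 named members, 4 lay on chromosome arm 3R, 4 on 2R, 3 on 2L, 2 on 3L and 2 on the X chromosome, *w* and *CG13377*. The corresponding shares of all 836 named and placed elements measured on enough arrays were 21.4%, 18.9%, 17.5%, 20.2% and 21.3%. The 2 members on 3L, the arm of *tra* and of the deletion in the *tra* pseudomales, were separated from *tra* by 271 genes in Release 6 of the gene annotation for *CG13458* and by 1135 genes for *CG5026*.

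The values in this and the next 3 paragraphs chose the members and carry no test. The largest mean *tra* ratio of a named member was that of *CG14636*, with 1.12, 0.68, 0.97 and 1.01 on the 4 *tra* arrays. On the *dsxD* arrays it had 0.43, 0.42, -0.29 and -0.28, so that its mean of 0.07 combines arrays above 0 in 1 dye orientation with arrays below 0 in the other. No *dsxD* array reached the lowest *tra* array. *CG5026* had the same mean *tra* ratio of 0.94, with 0.52, 0.64, 1.58 and 1.01 on single arrays. Its *dsxD* values were 0.19, -0.13, 0.26 and 0.61, and the highest of these lay above the lowest *tra* value. Both genes were lower in the *tra* pseudomales on every array, and *CG5026* was also below the female level on 3 of 4 *dsxD* arrays.

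**Figure D1:**
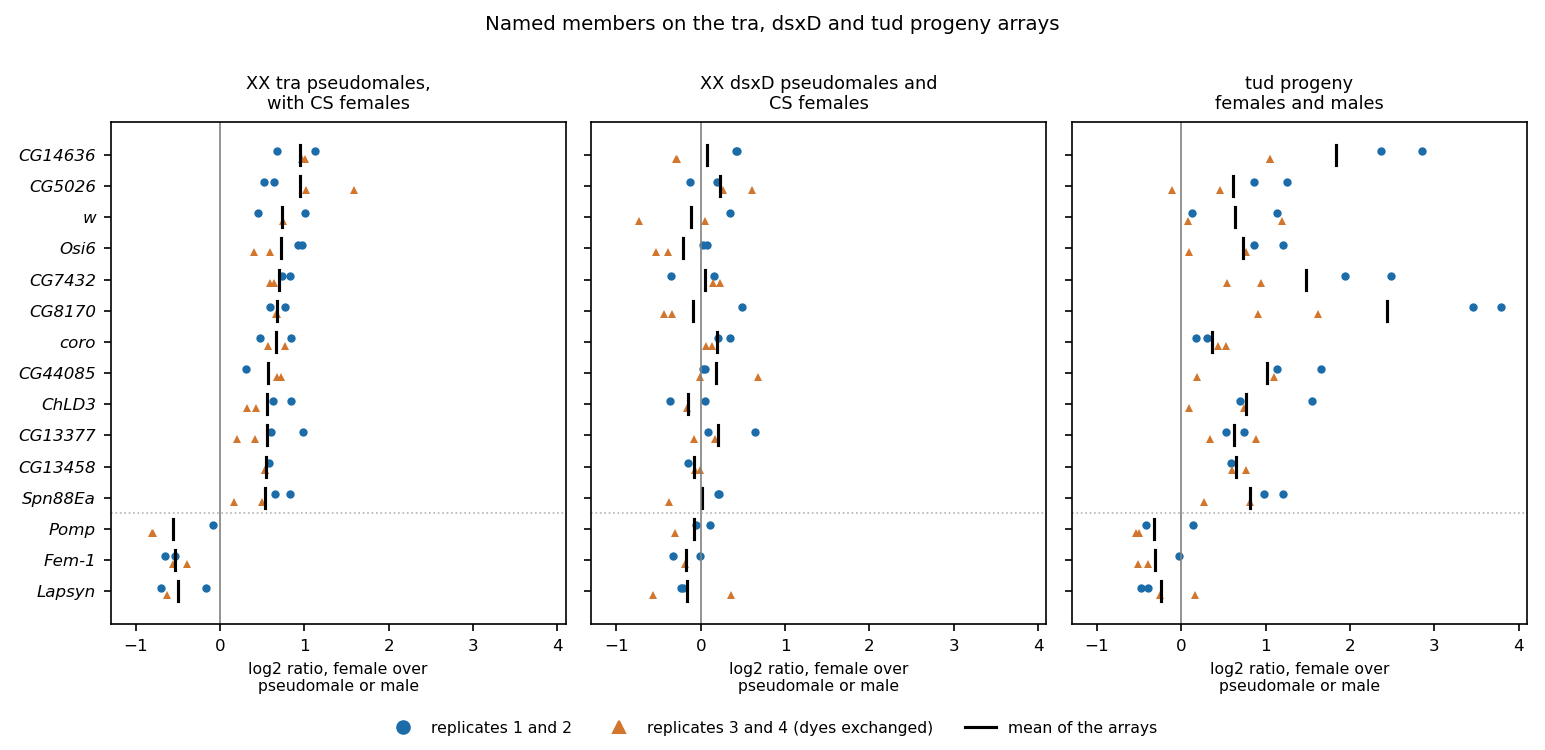
Log2 ratios of the 15 named members (rows) on the single arrays of XX *tra* pseudomales with CS females, XX *dsxD* pseudomales with CS females, and *tud* females with males. Points are arrays, circles replicates 1 and 2, triangles replicates 3 and 4 with the dyes exchanged, and black bars the mean; the dotted line separates the 12 female-side from the 3 male-side members. On the *tra* arrays all female-side points lie above 0, whereas on the *dsxD* arrays they lie on both sides of 0.

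*CG7432* and *CG8170* varied little between *tra* arrays. *CG7432* had 0.73, 0.82, 0.59 and 0.64, against 0.15, -0.35, 0.15 and 0.22 on the *dsxD* arrays. *CG8170* had 0.77, 0.59, 0.68 and 0.66 on the *tra* arrays, with 0.49, -0.43 and -0.35 on the *dsxD* arrays that measured it, replicates 2 to 4. For neither gene did the *tra* and *dsxD* arrays overlap. The serine protease inhibitor *Spn88Ea* spread more widely, with 0.65, 0.83, 0.50 and 0.16 on the *tra* arrays and 0.22, 0.20 and -0.38 on *dsxD* replicates 1 to 3, and these ranges did overlap. The cuticle gene *Osi6* had 0.92, 0.97, 0.59 and 0.40 on the *tra* arrays and 0.07, 0.03, -0.53 and -0.39 on the *dsxD* arrays. *ChLD3* had 0.84, 0.63, 0.43 and 0.32 on the *tra* arrays and -0.36, 0.05 and -0.16 on *dsxD* replicates 1 to 3. In both, the *tra* arrays lay above all *dsxD* arrays, and *Osi6* had the lowest *dsxD* mean of the 15 female-side members, at -0.21.

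The tightest values were those of *CG13458*, at 0.58, 0.53 and 0.53 on *tra* replicates 2 to 4 and -0.15, -0.07 and -0.01 on *dsxD* replicates 2 to 4. It was the 1 member that stayed within 0.25 of 0 on every *dsxD* array. The actin-binding *coro* had 0.84, 0.47, 0.77 and 0.56 on the *tra* arrays, against 0.20, 0.35, 0.06 and 0.13 on the *dsxD* arrays, where all 4 were above 0 and below the *tra* range. *w* had 0.45, 1.00 and 0.75 on *tra* replicates 1, 2 and 4, and 0.34, -0.73 and 0.05 on *dsxD* replicates 2 to 4. These crosses carried a mutant *w* allele and *white*-marked transgenes, so that the effect of *tra* on this gene and that of the markers cannot be told apart. *CG44085* had 0.31, 0.72 and 0.67 on *tra* replicates 2 to 4, and a single *dsxD* array, replicate 4, reached 0.68 while the others lay between -0.01 and 0.05. *CG13377* had 0.99, 0.60, 0.41 and 0.20 on the *tra* arrays and 0.09, 0.64, -0.08 and 0.17 on the *dsxD* arrays, and its ranges overlapped.

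Over the 15 female-side members, every *tra* array that gave a value was above 0, and 8 had all *tra* arrays above all *dsxD* arrays. Over all elements measured on at least 3 arrays of both, 7.95% had this order. Nothing is read from this difference, since the rule used both contrasts. On the male side, *Pomp* had -0.09, -0.79 and -0.81 on *tra* replicates 2 to 4 and -0.06, 0.11 and -0.30 on *dsxD* replicates 1, 2 and 4. *Fem-1* had -0.65, -0.53, -0.39 and -0.56 on the *tra* arrays and 0.00, -0.33 and -0.19 on *dsxD* replicates 1 to 3, without overlap. *Lapsyn* had -0.71, -0.16 and -0.64 on *tra* replicates 1, 2 and 4 and -0.21, -0.23, 0.35 and -0.57 on the *dsxD* arrays, with overlap. Only 3 of the 11 male-side members had all *tra* arrays below all *dsxD* arrays, an order found in 7.22% of all elements. Their *dsxD* means were below 0, the sign of their *tra* means, in 10 of 11, with a median of -0.16. On the female side 10 of 15 *dsxD* means were above 0, with a median of 0.07. Over all elements 49.2% of *dsxD* means were above 0, with a median of -0.01. The 8 unnamed male-side elements had mean *tra* ratios between -0.92 and -0.51. The mean of 1 of them, DAC006P11, rests on a single array, with -3.05 on replicate 1 and 0.18 and 0.24 on replicates 2 and 4. The unnamed female-side element DAC015L08 had the largest *tra* mean of all members, 1.05, and was split by dye orientation, with 2.13 and 1.81 on replicates 1 and 2 and 0.25 and 0.01 on replicates 3 and 4.

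Several members lay close to a limit of the rule. The *tra* means nearest to 0.5 in size were 0.502 inside it, for *Lapsyn*, and 0.492 outside it. For *tud* progeny the nearest sizes to 0.2 were 0.217 inside and 0.194 outside, and for *dsxD* pseudomales the nearest sizes to 0.25 were 0.246 inside and 0.255 outside.

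The *tud* values also entered the rule, so they carry no test and nothing is read from the counts in this paragraph. In *tud* progeny, which lack a germline, the largest sex differences of the members were those of the serine protease-like genes and of *CG14636*. *CG8170* had 3.46, 3.79, 1.62 and 0.91 on the 4 arrays, a mean of 2.44 ± 1.40 (SD, n = 4). *CG14636* had 2.37, 2.85, 1.05 and 1.05, and *CG7432* had 1.94, 2.49, 0.94 and 0.55. In all 3 genes both arrays with female RNA in Cy5 were higher than both arrays with female RNA in Cy3. *CG44085* followed with 1.13, 1.66, 1.10 and 0.18, where replicate 3 was close to replicate 1. The means of the 12 named female-side members ran upward from 0.36 for *coro*, and 14 of the 15 female-side members were above 0 on every array measured, the exception being *CG5026*, at -0.11 on replicate 4. The means of the male side were smaller, between -0.63 and -0.22, and 4 of 11 elements were below 0 on every array measured. Among named ones, *Pomp* had -0.42, 0.14, -0.50 and -0.54.

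CS and Berlin arrays did not enter the rule, and the sex difference of the members was tested there. The female RNA of the CS arrays is of the same strain as that of the *tra*, *dsxD* and XX *dsx* null arrays, whereas Berlin shares no strain with them. Over the 8 arrays together, 13 of the 15 female-side members were higher in females at a limma *q* value below 0.15, 1 was higher in males and 1, *w*, was not called. Of all 9901 elements tested, 73.1% were called, 46.2% as higher in females and 26.9% as higher in males. The median log2 ratio of the female-side members was 0.42, beside 0.12 over all elements tested. With the Benjamini-Hochberg adjustment, which called 23.9% of all elements as higher in females, 12 female-side members were called, *CG7432* being lost. Of the 12 named female-side members, 11 were called as higher in females, but 11 stand in a list of somatic sex differences and 9 in its subset downstream of *tra*, both chosen in part on these arrays, so that this count is not independent evidence of their direction.

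The largest wild type differences were those of *CG8170* and *CG14636*. *CG8170* had 0.40, 0.81, -0.49 and -0.12 in CS and 2.38, 3.21, 0.42 and 2.74 in Berlin, with a mean log2 ratio of 1.17 ± 0.41 (SE, n = 8), a 2.25-fold higher level in females (limma *q* = 0.0195). *CG14636* had 1.20, 1.19, -0.21 and 0.81 in CS and 2.33, 0.19 and 2.64 on Berlin replicates 1, 3 and 4. Its mean was 1.16 ± 0.33 (SE, n = 7; limma *q* = 0.00885). *CG8170* was above 0 on 6 of 8 and *CG14636* on 6 of 7 arrays. *CG44085* had 0.30, 0.34, 0.22 and 0.31 in CS and 1.56 and 1.68 on Berlin replicates 1 and 4, above 0 on all 6 arrays measured, with a mean of 0.74 ± 0.24 (SE; limma *q* = 0.0163).

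The cuticle and protease inhibitor genes rose by less in females. *Osi6* had 0.38, 0.79, 0.24 and -0.07 in CS and 1.53, 0.59, -0.22 and 1.10 in Berlin (mean 0.54 ± 0.19, SE, n = 8; limma *q* = 0.0173). *Spn88Ea* had 0.67, 0.30, -0.08 and -0.40 in CS and 1.53, 0.64, 0.01 and 1.03 in Berlin (mean 0.46 ± 0.20, SE, n = 8; limma *q* = 0.0355). *ChLD3* had 0.50, 0.05, -0.36 and -0.08 in CS and 1.48, 0.84, -0.16 and 1.15 in Berlin (mean 0.43 ± 0.21, SE, n = 8; limma *q* = 0.0489). In all 3, Berlin replicate 3 was the lowest Berlin array and the CS arrays with female RNA in Cy3 were lower than those with female RNA in Cy5. *CG13458* was above 0 on all 6 arrays that measured it, with 0.65, 0.71, 0.47 and 0.24 in CS and 0.23 and 0.40 on Berlin replicates 3 and 4 (mean 0.45 ± 0.11, SE; limma *q* = 0.0068).

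*CG13377* had 0.49, 0.54, 0.04 and -0.14 in CS and 0.48, 0.23, 0.07 and 0.78 in Berlin (mean 0.31 ± 0.12, SE, n = 8; limma *q* = 0.0232). The myotubularin-related *CG5026* and the coronin gene were also higher in females. *CG5026* had 0.29, 0.77, -0.14 and -0.39 in CS and 1.14, 0.34 and 0.77 on Berlin replicates 2 to 4 (mean 0.40 ± 0.18, SE, n = 7; limma *q* = 0.0447). *coro* had 0.50, 0.98, -0.05 and -0.04 in CS and 0.63, -0.23, 0.22 and 0.47 in Berlin (mean 0.31 ± 0.14, SE, n = 8; limma *q* = 0.0405). *CG7432* was the weakest of those called, above 0 on 4 of 8 arrays. It had 0.30, 0.89, -0.32 and -0.12 in CS and 1.34, -0.03, -0.38 and 0.33 in Berlin, with a mean of 0.25 ± 0.19 (SE; limma *q* = 0.11), and it was not called with the Benjamini-Hochberg adjustment (*q* = 0.332), after centering of the arrays (*q* = 0.17), or without CS replicate 2 (*q* = 0.164), Berlin replicate 1 (*q* = 0.236) or Berlin replicate 4 (*q* = 0.167). *w* had 0.10, 0.21, 0.13 and -0.08 in CS and 0.16 on the single Berlin array that measured it (mean 0.10 ± 0.12, SE, n = 5; limma *q* = 0.171), and passed the threshold without CS replicate 4 (*q* = 0.139) and in an unmoderated *t*-test with Storey *q* values over all elements (*q* = 0.0689). The unnamed element DAC039J19 was the exception in direction, higher in males by a log2 ratio of -0.31 ± 0.12 (SE, n = 8; limma *q* = 0.026), below 0 on 6 of 8 arrays.

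**Figure D2:**
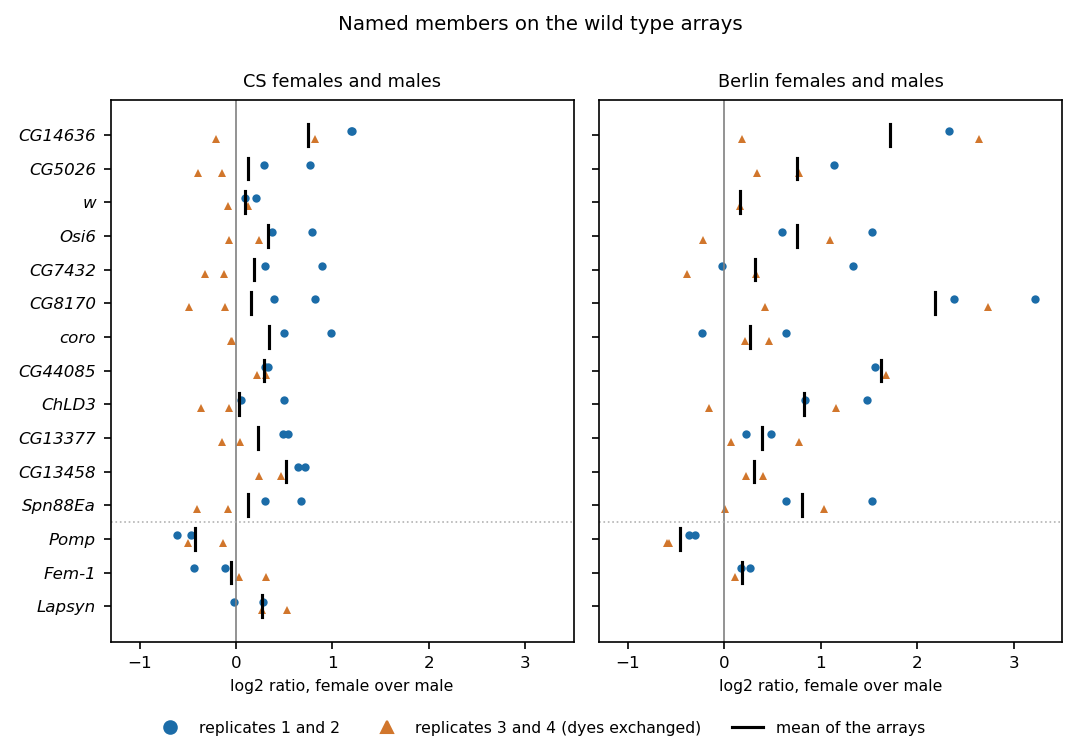
Log2 ratios of females over males for the 15 named members (rows) on the CS and the Berlin arrays, with circles for replicates 1 and 2, triangles for replicates 3 and 4 with the dyes exchanged, and black bars for the mean. In CS most female-side members have points on both sides of 0, and in Berlin *CG8170*, *CG14636* and *CG44085* reach the highest values.

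The male-side members were spread in the wild type much like all elements. Of the 11, 2 were called as higher in males, beside 26.9% of all elements, and 6 as higher in females, beside 46.2%. Their median log2 ratio was 0.14, and that of all elements tested 0.12. The label of a male bias thus rests on the *tud* progeny, where the sign was a condition of the rule. Most of these elements were not called as higher in males in CS and Berlin. *Pomp* was the clear case in the direction of the rule, higher in males on all 8 arrays, with -0.47, -0.61, -0.13 and -0.50 in CS and -0.36, -0.30, -0.59 and -0.57 in Berlin (mean -0.44 ± 0.09, SE; limma *q* = 0.00116). Over all elements, 15.8% were below 0 on every wild type array measured. The second call, that of the unnamed element DAC021I12 (mean -0.20 ± 0.19, SE, n = 5; limma *q* = 0.147), had values from -0.62 to 0.36 in CS. *Lapsyn* had 0.28, -0.02, 0.53 and 0.27 in CS and no value in Berlin, and was called as higher in females (mean 0.27 ± 0.15, SE, n = 4; limma *q* = 0.0764), a call that was lost with the Benjamini-Hochberg adjustment (*q* = 0.232). *Fem-1* had -0.12, -0.43, 0.31 and 0.03 in CS and 0.17, 0.26 and 0.11 on Berlin replicates 1 to 3, and was not called (mean 0.05 ± 0.11, SE, n = 7; limma *q* = 0.253). Its sign turned, to -0.01, when arrays were centered on their medians, and without CS replicate 2 it was called as higher in females (*q* = 0.108). The 8 unnamed male-side elements had wild type means between -0.20 and 0.57, of which 5 were called as higher in females.

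For comparison, 170 elements met the *tra* and *tud* conditions of the rule and also had a *dsxD* mean of 0.5 or more in size with the same sign. Of the 101 on their female side, 96 were called as higher in females in the wild type, with a median of 0.75. Of the 69 on their male side, 23 were called as higher in males and 14 as higher in females, with a median of -0.09. The scatter plot shows both sets, which share their *tra* and CS arrays, so that no test of their difference is given.

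**Figure D3:**
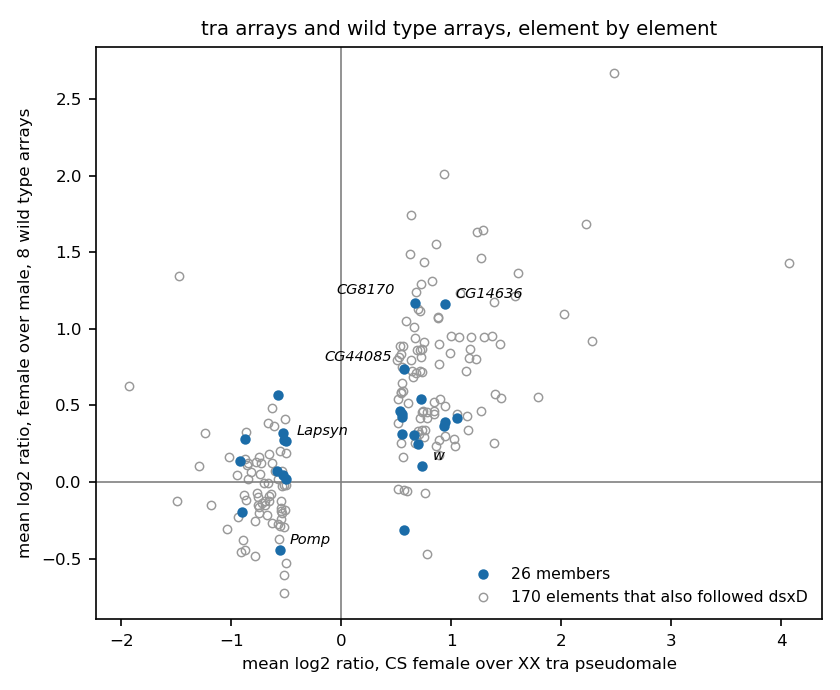
Mean log2 ratio of CS females over XX *tra* pseudomales (horizontal) and of females over males on the 8 wild type arrays (vertical) for the 26 members (filled) and the 170 elements that also followed *dsxD* (open). On the right of 0 most filled points lie above 0, with medians of 0.42 for the members and 0.75 for the open points, whereas on the left the members lie mainly above 0.

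CS and Berlin were also tested one by one. In CS alone, 5 of 15 female-side members were called as higher in females (18.6% of all elements) and 1 of 11 male-side members as higher in males (21.7% of all elements). In Berlin alone, 13 of the 14 female-side members tested were called as higher in females (45.9% of all elements) and 1 of 9 male-side members as higher in males (25.1% of all elements). The CS count of 6 over both sides became 1 without replicate 1, 2 without replicate 2 and 10 without replicate 3, and the Berlin count of 14 became 9 without replicate 4. The share of all elements called moved in the same direction, in CS from 40.3% to 21.4%, 26.9% and 49.4%, and in Berlin from 71% to 45.3%. Of all calls in Berlin 64.7% were higher in females, and 48.7% after each array was centered on its median, when 10 female-side members were called. The medians of the female-side members were 0.21 in CS and 0.64 in Berlin, beside 0.05 and 0.17 over all elements. The difference itself was tested for 23 members, and 2 were called, beside 3.39% of all elements. Of all these calls 31.5% were higher in CS, and 51.9% after centering, when 2 members were called. Both had a smaller female excess in CS than in Berlin. For *CG8170* the CS mean was 0.15 and the Berlin mean 2.19, a difference of -2.03 ± 0.56 (SE, n = 8; limma *q* = 0.133). For *CG44085* the means were 0.29 and 1.62, a difference of -1.33 ± 0.20 (SE, n = 6; limma *q* = 0.0605). Of the 14 female-side members tested, 12 had a lower ratio in CS, with a median difference of -0.36, beside -0.14 over all elements. The share of all elements with a lower ratio in CS was not counted, so nothing is read from the 12. The call for *CG8170* was lost with the Benjamini-Hochberg adjustment (*q* = 0.182). Neither call was present after scaling of the arrays or without CS replicate 1 or 4, and without Berlin replicate 1 or 4 *CG8170* was not called and *CG44085* had a single Berlin value and was not tested.

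The CS values of the female-side members moved with the dye orientation. Their median was 0.38 and 0.64 on the CS arrays with female RNA in Cy5, and -0.05 and -0.08 on the arrays with female RNA in Cy3, while the median of all elements stayed between -0.03 and 0.02. A dye split in CS was not confined to the members. Among elements listed with a published wild type sex difference, 95.8% of 428 had the published sign on the CS arrays with female RNA in Cy5. With female RNA in Cy3 it was 67.8% of 423, and in Berlin the shares were 97.8% of 366 and 95.7% of 394. The lowest value of each of the 15 members was on replicate 3 or 4, and 3 members were above 0 on all CS arrays, among all elements 20.2%. In Berlin the medians were 1.41, 0.33, 0.19 and 0.78 on replicates 1 to 4. Replicate 1 was the highest array for 7 and replicate 3 the lowest for 8 of the 12 members with at least 3 values. In all, 10 of the 15 were above 0 on every Berlin array that measured them, including *w* with a single Berlin value. Among all elements with at least 2 Berlin values the share was 34.6%. On the *tra* arrays the medians were 0.84, 0.68, 0.56 and 0.56 and did not change sign with the dyes. On the *dsxD* arrays they were 0.12, 0.34, -0.16 and 0.17, and replicate 3 was the lowest array for 11 of 15. The part of the dyes and of single arrays in the *dsxD* means was not tested.

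**Figure D4:**
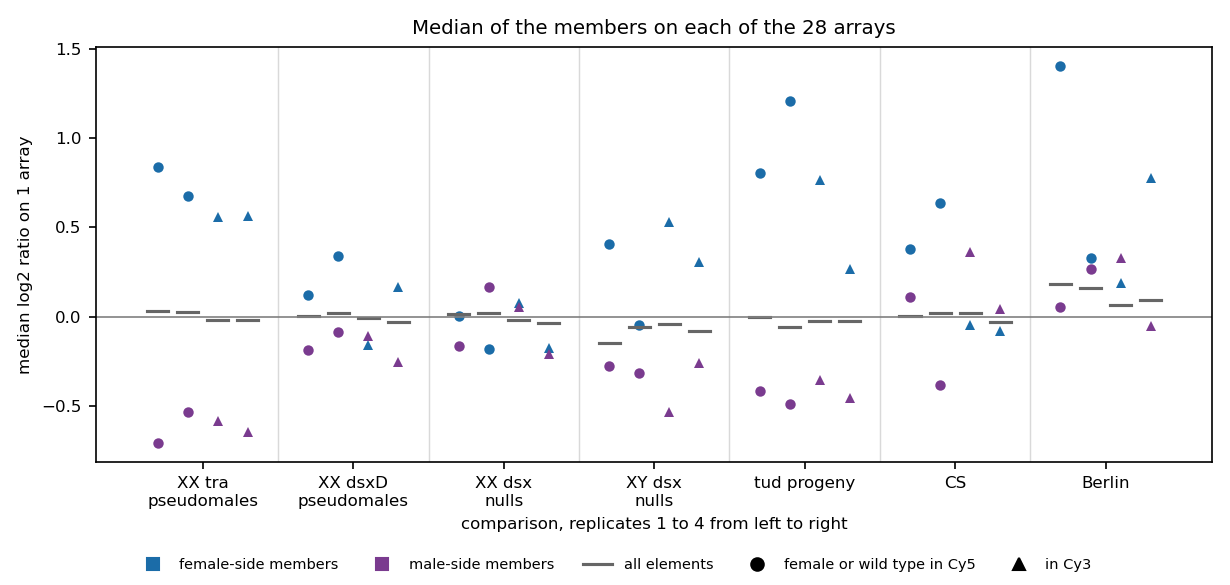
Median log2 ratio of the 15 female-side members (blue), the 11 male-side members (purple) and all elements (grey bars) on each of the 28 arrays, with circles for arrays that have the female or wild type RNA in Cy5 and triangles for Cy3. The 2 sides are far apart on the *tra* and *tud* arrays, where the rule chose them, and in CS the blue points are above 0 on replicates 1 and 2 and slightly below 0 on replicates 3 and 4.

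The *dsx* nulls lack both DSX isoforms, so that the comparison of CS females with XX nulls bears on the female isoform and that of CS males with XY nulls on the male isoform. The rule used these arrays only to leave out elements with large effects in both, and they carry no test here. With an XY mean of 0.8 or more, an element stayed only if its XX mean was below 0.8, or below 0.4 in size with the opposite sign. *CG7294*, *CG2150* and *CG13720*, which were left out, had XX means of 1.0, 1.24 and -0.73 and XY means of 1.38, 2.37 and 0.75. The contrast of low XX with high XY values is thus in part set by the rule. Most female-side members were close to 0 in XX nulls, with means between -0.52 and 0.36 and a median of -0.06. In XY nulls 11 of 15 means were above 0, a lower level in the nulls than in CS males, beside 41.9% of all elements. The median of the 15 was 0.23, beside -0.12 over all elements. *CG8170* had 2.79, 0.45, 2.69 and 0.76 in the XY null comparison and 0.38, -0.61, 0.48 and -0.28 in the XX null comparison. *CG7432* had 1.51, 0.35, 2.15 and 0.68 in XY nulls and -0.39, -0.62, 0.33 and -0.05 in XX nulls. *CG14636* had 1.99, -0.09, 1.75 and 0.31 in XY nulls and 0.39, -0.24, 0.28 and -0.16 in XX nulls. In these 3 genes XY replicates 1 and 3, which have opposite dye orientations, were higher than replicates 2 and 4, and for *CG8170* and *CG7432* all 4 XY arrays were above 0. *CG44085* had 0.51, 0.08, 1.25 and 0.65 in XY nulls and a mean of -0.11 in XX nulls. These are the genes with the largest differences in *tud* progeny as well.

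**Figure D5:**
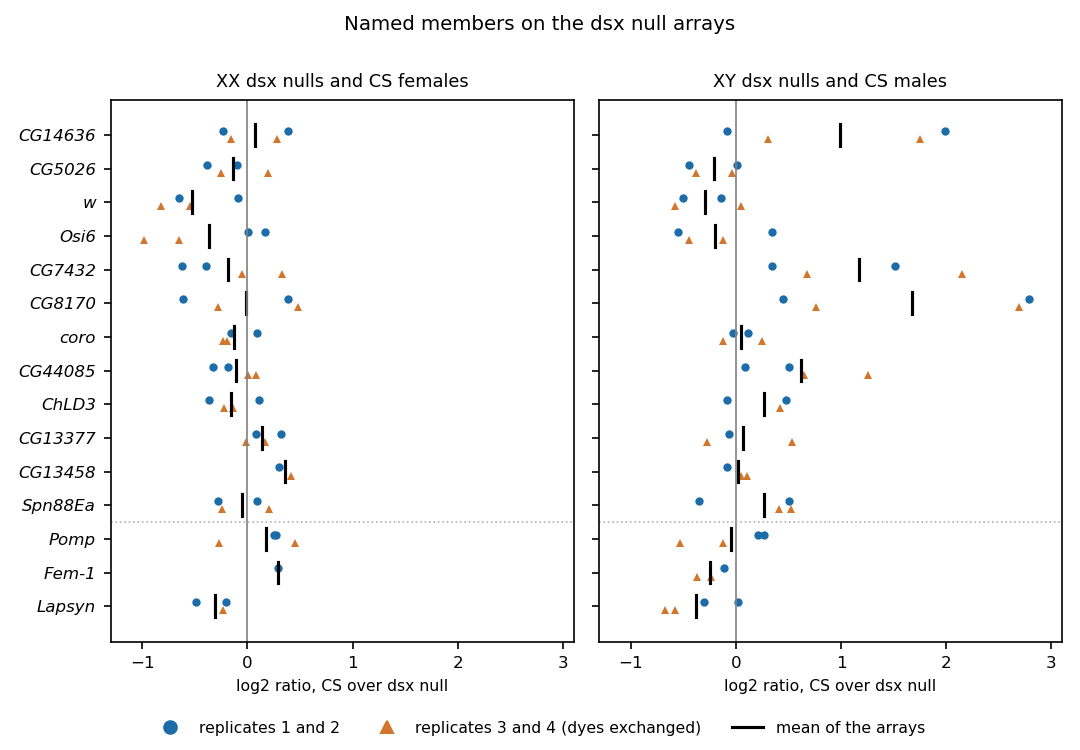
Log2 ratios of the 15 named members (rows) for XX *dsx* nulls with CS females and for XY *dsx* nulls with CS males, as CS over null, with circles for replicates 1 and 2, triangles for replicates 3 and 4 with the dyes exchanged, and black bars for the mean. The XX values lie around 0, and in the XY comparison *CG8170*, *CG7432*, *CG14636* and *CG44085* have means of 1.67, 1.17, 0.99 and 0.62.

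Other named members had small effects in both nulls. *coro* had means of -0.12 in XX nulls and 0.05 in XY nulls, *CG13377* had 0.14 and 0.07, and *CG5026* had -0.14 and -0.21. *w* was higher in both kinds of null than in CS, with means of -0.52 and -0.29, and only the XX nulls are stated to carry the *white*-marked transgene. *Osi6* had 0.17, 0.01, -0.65 and -0.98 on the XX null arrays, split by dye orientation. *CG13458* had 0.30 and 0.41 on the 2 XX null arrays that measured it and 0.02 on average in XY nulls. On the male side, XX null means were between -0.54 and 1.09, the highest being that of an unnamed element with all 4 arrays above 0. XY null means were between -0.78 and 0.25, and the 3 named genes had -0.04 for *Pomp*, -0.24 for *Fem-1* and -0.38 for *Lapsyn*.

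Genes with related functions were counted by name lists chosen with earlier results of these data known. The lists went by the names printed with the data and miss genes not named there by function. Among those missed are the members *CG7432*, *CG8170* and *ChLD3*, with *tra* means of 0.70, 0.67 and 0.55. The names came from published lists, some of which were chosen for sex, *tra* or *dsx* differences on these same arrays. Shares among named elements are thus not comparable with those over all elements, and nothing is read from their difference. Of 38 named cuticle, chitin, Osiris and *yellow* family elements, 34 were tested in the wild type, with 28 called as higher in females and 5 as higher in males, beside 46.2% and 26.9% of all elements, and 26 were measured on enough *tra* and *dsxD* arrays. Of these 26, 12 had a *tra* mean of 0.5 or more and 13 a *dsxD* mean of 0.5 or more, with median ratios of 0.41 and 0.50. Both held for 10 of them, and 2 had a *tra* mean and 4 a *dsxD* mean of -0.5 or lower. *Osi6* was the 1 element of this list that the rule chose. Over all 5387 elements measured on at least 3 arrays of both mutants, 9.3% had a *tra* mean of 0.5 or more, 11% a *dsxD* mean of 0.5 or more and 3.68% both. In the other direction, at -0.5 or lower, the shares were 7.17% for *tra*, 9.91% for *dsxD* and 3.51% for both. The other 4 Osiris elements of the list differed in sign on the *tra* arrays. *Osi19* had a *tra* mean of 2.61 over 3 arrays and a *dsxD* mean of -0.93, over too few arrays to enter the rule. *Osi3*, *Osi11* and *Osi21* had *tra* means of -0.46, -0.52 and -0.21 and *dsxD* means of -1.07, -2.30 and -1.78. Of the 8 elements of the protease and inhibitor list measured in both mutants, 2 had a *tra* mean of 0.5 or more, *Spn88Ea* and *Psa*. None of the 8 had a *dsxD* mean of 0.5 or more, while *spirit* had a *dsxD* mean of -0.66. *Psa*, a puromycin-sensitive aminopeptidase, had a *tud* mean of 0.12, below the limit of the rule, and means of -0.90 in CS and -1.16 in Berlin. All 5 elements of storage and fat body proteins were higher in both pseudomales, with *tra* means from -3.54 to -0.79 and *dsxD* means from -2.95 to -0.81, and none is a member. The muscle, immunity and sex hierarchy lists held no member either.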

How the data were processed

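Transcript levels in whole pupae at 48 hour APF were measured on 28 two-color arrays. The authors deposited 1 log2 ratio per element and array, normalized by global loess in LIMMA, with the dye swap already turned and elements that failed an intensity filter left empty. Neither a background correction nor a scaling of arrays to each other is given in the sources used here. The channel sex of *tud* replicates 2 and 4 differs between label fields, and the source name was used. After 32 control elements were left out, members were chosen from these ratios by the stated rule. Members and name lists were chosen with earlier results of these data known.

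Wild type arrays were tested against 0 with limma 3.58.1 (R 4.3.3), two-sided, over all elements with values on at least 4 of 8 arrays (2 of 4 for 1 strain, 2 in each for CS minus Berlin), and Storey *q* values below 0.15 were called. The study's methods name this threshold. The number of arrays limits the precision. On simulated data with a log2 change of 1 in 200 elements, 85% were recovered in the wild type test, 59.5% in CS, 44% in Berlin and 50% in CS minus Berlin, and between 17.9% and 21.3% of calls were false. The simulation changed far fewer elements than the 73.1% called in the wild type. Storey *q* values depend on that share, so these rates do not carry over to the tests of the real arrays. Alternatives were Benjamini-Hochberg adjustment, more arrays required, a dye term, centering, scaling, an unmoderated *t*-test (the methods name a *t*-test for steps of this experiment and LIMMA for all statistics), array weights, a replicate block, other forms of the rule and leaving out each array in turn.

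Elements were named through the lists published with the data (2357 of 15744). All 15 named members were found in the Release 6 gene table, 14 by current and 1 by older locus tag. Since the design of the array is older than this release, only the arm and the order of genes were used. Single-array values are given for the named members that were called in the wild type, had the largest *tra* means, stand in the list downstream of *tra*, belong to a fixed name list or lie on 3L, which took in all 15. Unnamed elements given by ID, and the other Osiris elements, *Psa* and *spirit*, were picked after their values were seen. No sequences were used here. Figures were drawn with matplotlib 3.10.9 in Python 3.11.15.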

Additional observations from a re-analysis of the deposited data

Results flagged for a closer look

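Among 77 sets of 4 arrays of the named members, 3 had 1 array far from the other 3 by Dixon's criterion, which chance gives in about 1 of 20. *CG7432* had -0.35 on *dsxD* replicate 2, with the others between 0.15 and 0.22. *CG44085* had 0.68 on *dsxD* replicate 4, with the others between -0.01 and 0.05. *Spn88Ea* had -0.35 on XY *dsx* null replicate 2, with the others between 0.41 and 0.52. The sex difference in CS minus that in Berlin was called by the limma contrast for *CG8170*, at -2.03 (*q* = 0.133), and for *CG44085*, at -1.33 (*q* = 0.0605), the female excess being smaller in CS for both.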

How the results depend on the processing

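The count of members called in the wild type with the sign of the rule was 15 of 26 and stayed between 13 and 15 under the tool settings and with each array left out. Another 7 members were called against the sign of the rule. Of all elements, 73.1% were called in either direction, and 45% with the Benjamini-Hochberg adjustment. With an array left out this share ranged from 62.6% (without Berlin replicate 4) to 77.2% (without CS replicate 2). The count of members was 6 when CS and Berlin each had to pass, and the share of all elements was not counted for this setting. The count in CS was 6, became 3 with the Benjamini-Hochberg adjustment, and ranged from 1 (without replicate 1) to 10 (without replicate 3) with an array left out, with 2 without replicate 2. The count in Berlin was 14 and ranged from 9 (without replicate 4) to 12 with an array left out. Of all elements, 40.3% were called in CS, 21.4% without replicate 1 and 49.4% without replicate 3. In Berlin 71% were called, and 45.3% without replicate 4. For CS minus Berlin 2 members were called, with 1 under the Benjamini-Hochberg adjustment, the stricter minimum of arrays and the unmoderated *t*-test, 0 after scaling, and from 0 to 4 (without Berlin replicate 3) with an array left out, where the settings with 0 had between 1 and 4 members at an unadjusted limma p below 0.05, as did scaling with 2. The replicate block gave 15 members in the wild type and 1 in CS minus Berlin. The numbers were not taken as pairs, since same-numbered CS and Berlin arrays had correlations of deviations of 0.169, 0.0452, 0.159 and 0.183, CS replicate 2 was closest to Berlin replicate 1 (0.278), and same-numbered arrays share the dye orientation. The number of members was 26, with 29 after centering, 24 with both dye orientations weighted equally, 8 when all 4 arrays were required, and from 13 (without *dsxD* replicate 3, 11 of them shared) to 26 with an array left out. It was 17 without *dsxD* replicate 4, and 12 of the 26 were chosen again without *dsxD* replicate 2 and 15 without *tra* replicate 2. These leave-outs kept the minimum of 3 arrays, so members with only 3 arrays that include the one left out were lost whatever their values. None of the 11 male-side members was chosen again in all 12 leave-outs with 2 arrays allowed. *Fem-1* changed sign to -0.013 after centering. Of 234 gene settings, 224 kept the direction and side of the threshold. The causes were not tested.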
